A study of Mus musculus with 10 samples.

Results

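The genes described here are 10 mouse genes of the energy-sensing kinases AMPK and mTOR: the AMPK catalytic subunits Prkaa1 and Prkaa2, its beta subunits Prkab1 and Prkab2, its gamma subunits Prkag1 and Prkag2, the AMPK-activating kinase Stk11, and Mtor, Rptor and Tsc2 of the mTOR branch. The list of genes was drawn up with earlier results of these data known, and every peak annotated to one of these symbols was taken whatever its values, which gave 75 peaks of 108253, of which 10 were promoter peaks of 17144. Retinas of wild-type C57BL/6J mice at postnatal day 28 were cultured as explants for 48 h with 5 mM or 25 mM glucose, and 500000 dissociated cells entered each assay. The assay was CUT&Tag, which uses an antibody to bring a transposase to a histone mark and sequences the DNA cut there. It was done for lactylation of histone H3 at lysine 18 (H3K18La) in 3 libraries at each glucose level, and for acetylation at lysine 27 (H3K27Ac) in 2. The sample titles name the second mark H3K27Ac, but the protocol text deposited with them lists an antibody to H3K9me3, a mark of silent chromatin, in its place, and the titles were followed here. The 4 groups share genotype, age and culture time and differ by design in the mark and the glucose. The libraries also differ in sequencing depth and in the share of reads in peaks, given below. Whole explanted retina was dissociated, so a level in a peak is a mean over retinal cell types, and fewer cells that carry a mark cannot be told apart from less mark per cell. Nothing in the labels says whether the replicates were separate animals, so p-values measure the spread between these libraries.

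AMPK is a heterotrimer of a catalytic alpha, a scaffolding beta and a nucleotide-binding gamma subunit. It is switched on when AMP and ADP rise relative to ATP, and its activation loop is phosphorylated by the kinase STK11, also called LKB1. The mTOR kinase, with its substrate-recruiting partner RAPTOR, forms a complex that promotes growth when nutrients are plentiful, and AMPK restrains it through TSC2 and RAPTOR. Photoreceptors, the most numerous cells of the retina, run a high rate of aerobic glycolysis, and glucose supply is the variable of this experiment.

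The 75 peaks were spread unevenly over 9 of the 10 genes. Prkag2 held 35 peaks and Rptor 26, whereas Prkaa2 held 6, Prkab1 held 3, and Prkaa1, Prkab2, Prkag1, Mtor and Tsc2 held 1 each. Stk11 held none. By annotation 57 of the 75 peaks were intronic, which is 76.0% against 42.0% of all peaks, 10 were promoter peaks, defined as -1000 to 500 bases from a start site, 4 were exonic, 3 distal intergenic and 1 lay in a 3′ UTR. The single Mtor peak (chr4:148491732-148494904, GRCm38) was exonic and 43121 bases downstream of the start, and the single Tsc2 peak (chr17:24601184-24602161) was exonic, 30469 bases from the start used by the annotation. No peak covered the start sites of Stk11, Mtor or Tsc2, or the first and second of the 3 RefSeq starts of Prkag2. The number of peaks in the file equals that of a set which the study's text describes as merged from H3K18La peaks of retinas at several ages, so a start without a peak is one where neither mark was quantified, and its H3K27Ac is not known from these values.

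The sequences upstream of the members' start sites are given first, and the central bases of an intronic peak follow. In the RefSeq promoter table (GRCm38.p6), all 10 genes matched, with 3 starts for Prkag2 and 1 for each other gene. Windows of 300 bases, 250 before and 50 after the start, were searched on both strands for the GC box GGGCGG, the E-box CACGTG and the NRF1-type motif GCATGCGC. Matches of the GC box that overlap each other, as in the Prkaa1 window, were counted separately. The GC box occurred in 8 of the 12 member windows against 35.7% of 32851 windows, and the E-box and the NRF1-type motif in none, against 7.15% and 2.71%. The 250 bases before the start are shown, in the direction of transcription and with GC boxes in capitals, for 3 promoters whose mark levels are described in detail and for 2 starts that no peak covered. The first 3 are Prkaa2 (chr4:105109899-105110148, minus strand), Prkag2 (at the third start, chr5:24908510-24908759, minus strand) and Prkab1 (chr5:116024429-116024678, minus strand). The other 2 are Mtor (chr4:148448332-148448581, plus strand) and Tsc2 (chr17:24632628-24632877, minus strand).
Prkaa2: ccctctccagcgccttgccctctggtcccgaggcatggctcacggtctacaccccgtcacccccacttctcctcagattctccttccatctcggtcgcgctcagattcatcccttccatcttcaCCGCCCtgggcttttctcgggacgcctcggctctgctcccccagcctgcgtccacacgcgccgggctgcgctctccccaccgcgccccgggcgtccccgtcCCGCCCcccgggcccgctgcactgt
Prkag2, the third start: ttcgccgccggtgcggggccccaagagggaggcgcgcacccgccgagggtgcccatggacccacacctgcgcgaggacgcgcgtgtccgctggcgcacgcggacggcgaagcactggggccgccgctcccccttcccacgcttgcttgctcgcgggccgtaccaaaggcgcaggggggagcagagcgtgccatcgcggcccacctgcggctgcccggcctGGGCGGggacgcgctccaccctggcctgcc
Prkab1: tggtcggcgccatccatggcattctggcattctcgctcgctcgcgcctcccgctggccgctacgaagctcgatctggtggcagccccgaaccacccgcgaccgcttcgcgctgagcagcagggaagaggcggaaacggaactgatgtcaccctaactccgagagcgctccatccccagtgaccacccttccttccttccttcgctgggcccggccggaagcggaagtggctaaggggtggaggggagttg
Mtor: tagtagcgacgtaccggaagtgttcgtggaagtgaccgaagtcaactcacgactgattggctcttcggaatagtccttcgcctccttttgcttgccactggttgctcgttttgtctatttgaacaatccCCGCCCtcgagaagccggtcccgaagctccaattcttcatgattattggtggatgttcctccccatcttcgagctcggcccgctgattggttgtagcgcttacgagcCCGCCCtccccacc
Tsc2: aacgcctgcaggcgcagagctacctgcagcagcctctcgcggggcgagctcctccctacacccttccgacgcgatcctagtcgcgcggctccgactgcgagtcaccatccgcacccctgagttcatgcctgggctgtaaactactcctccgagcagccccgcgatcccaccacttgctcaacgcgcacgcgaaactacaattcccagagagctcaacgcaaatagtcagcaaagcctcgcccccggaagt
The Prkaa2 and Mtor windows each held 2 GC boxes, the Prkag2 window held 1, and the Prkab1 and Tsc2 windows held none. The ratio of observed to expected CpG dinucleotides was 0.929 for Prkaa2, 0.962 for the third Prkag2 start, 0.937 for Prkab1, 0.873 for Mtor and 0.953 for Tsc2, against a median of 0.384 over all RefSeq promoter windows. The Mtor and Tsc2 starts, which no peak covered, thus had CpG ratios like those of the covered starts, whereas the second Prkag2 start, also without a peak, had a ratio of 0.316. Not every promoter peak was rich in CpG. The central 300 bases of the strongest Prkab1 promoter peak (chr5:116016941-116018685) had a ratio of 0.237 and no GC box. Those of the Rptor promoter peaks chr11:119655640-119656928 and chr11:119810314-119812182 had ratios of 0.107 and 0.301.

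The strongest member peak for H3K18La lay within an intron of Prkag2 (chr5:24971173-24971712). Its central 300 bases (chr5:24971293-24971592, plus strand, GRCm38) are shown because they carry the highest lactylation among all the members.
Prkag2 intronic peak: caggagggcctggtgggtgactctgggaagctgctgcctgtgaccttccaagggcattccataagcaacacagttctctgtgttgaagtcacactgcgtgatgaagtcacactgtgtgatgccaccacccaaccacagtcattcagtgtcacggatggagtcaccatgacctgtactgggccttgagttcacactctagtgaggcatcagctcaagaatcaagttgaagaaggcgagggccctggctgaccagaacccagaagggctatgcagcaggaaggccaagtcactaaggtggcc
None of the 3 motifs was in this stretch, and its CpG ratio was 0.134, against a median of 0.179 over 88462 stretches of the same length at the centres of peaks outside promoters. A search for TAATCC, the core bound by the photoreceptor factor CRX, chosen after the values were seen, also gave no match here or in the central bases of the 8 neighbouring peaks, against 12.3% of the peaks outside promoters.

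Levels are given as RPKM, the reads in a peak scaled to its length and to a library's total in the deposited table. These totals ran from 1358008 to 7424470 reads, and the member peaks held 139 to 509 reads in each H3K18La library at 5 mM, 627 to 1090 at 25 mM, 847 to 1764 in the H3K27Ac libraries at 5 mM and 3689 to 4277 at 25 mM. The share of reads in peaks was 11.8 to 12.0% for H3K18La at 5 mM and 31.2 to 35.0% at 25 mM, and for H3K27Ac 21.1 and 31.5% at 5 mM and 69.5 and 56.5% at 25 mM. A rise in RPKM was therefore seen at most peaks of the genome, and each member is read against it. The summed promoter RPKM of 6 rod markers was 7.40 to 12.6 at 5 mM and 44.1 to 106 at 25 mM for H3K18La, and 40.4 to 66.6 against 191 to 335 for H3K27Ac. For 4 Müller glia markers the H3K18La ranges were 3.36 to 6.78 and 9.15 to 12.3, for 4 of 5 cone markers 4.02 to 7.11 and 11.7 to 16.2, for 4 bipolar markers 1.66 to 2.93 and 2.25 to 3.47, and for 2 of 3 amacrine markers 1.60 to 2.62 and 6.53 to 9.70. They were 0.833 to 2.44 and 2.19 to 2.78 for 3 of 4 ganglion cell markers, 0 to 0.790 and 0.528 to 0.724 for 1 of 3 horizontal cell markers, 0.532 to 5.22 and 0 to 0.929 for 1 of 2 endothelial markers, and 2.17 to 10.6 and 11.8 to 19.0 for 2 of 3 pigment epithelium markers, while none of 3 microglia markers had a promoter peak. For H3K27Ac the ranges were higher at 25 mM for Müller glia (11.1 to 14.2 and 28.2 to 33.5), cones (4.73 to 6.99 and 12.3 in both libraries), bipolar (3.92 to 5.71 and 17.3 to 30.6), amacrine (6.65 to 8.85 and 18.5 to 39.1), ganglion cell (0.891 to 2.93 and 3.19 to 3.88) and pigment epithelium markers (3.71 to 5.81 and 8.40 to 12.1). They overlapped, with the lower values at 25 mM, for the horizontal cell (0.992 to 1.38 and 0.746 to 1.16) and endothelial markers (1.27 to 2.66 and 0 to 1.48). No listed marker with a promoter peak was at 0 in every library of a group, and the part of cell composition in the member results was not tested.

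Each peak was tested with limma on log2(RPKM + 0.5), and p-values were adjusted by the Benjamini-Hochberg method across every peak whose mean RPKM in the mark's libraries was at least 1. The log2 changes are differences between 25 mM and 5 mM on that scale, which understates the change of weak peaks. The minimum is on the mean of both glucose levels, so a weak peak can pass it through its 25 mM libraries alone. For H3K18La, 53 of the 75 member peaks passed the minimum, and 18 of them rose at an adjusted p under 0.05 and none fell, and of all 65614 peaks tested 37.3% rose. For H3K27Ac, 65 passed the minimum, 23 rose and none fell, and of 72442 peaks 33.9% rose. The members thus rose about as often as any peak did. Over all 75 peaks, without the minimum, the median log2 change was 0.92 for H3K18La against 0.76 over all 108253 peaks, and 0.71 for H3K27Ac against 0.58. Every 25 mM library lay above every 5 mM library at 35 of the 75 peaks for H3K18La, or 46.7% against 36.6% of all peaks, and at 47 of the 75 for H3K27Ac, or 62.7% against 53.0%.

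These calls depend on the scaling to library totals. The median log2 change of all peaks tested went from 1.10 to 0.19 for H3K18La and from 0.84 to 0.15 for H3K27Ac when libraries were centred on their medians, and to 0.03 and -0.22 when reads in peaks were the denominator. With the centring, 1 member peak was past the threshold for H3K18La, with 1.54% of all peaks called higher, and none for H3K27Ac, with 1.44%. With reads in peaks as the denominator, no member and no peak of the genome was called (0.0% for both marks), with 7636 peaks for H3K18La and 12491 for H3K27Ac at an unadjusted p under 0.05, 4 and 12 of them members. For H3K27Ac, with 2 libraries a group, the limma moderation took each peak's spread from a trend on its level shared by all peaks, so its p-values hold little of a peak's own replicate error, and an exact permutation of 2 against 2 libraries cannot go below 0.33. Without H3K27Ac 25 mM replicate 1, or without 25 mM replicate 2, no member peak was called for that mark, with 4 and 16 members at an unadjusted p under 0.05, and 10 and 944 of all 72442 peaks were called. In these fits the lone 25 mM library is assumed to vary like the 5 mM libraries, which alone give the spread. Without 5 mM replicate 1, which leaves 1 library at 5 mM, the median log2 change of all H3K27Ac peaks tested was 0.63, beside 0.84 in the main fit. With no minimum RPKM no H3K27Ac peak was called, member or not, while 25 members and 31013 peaks had an unadjusted p under 0.05. The replicate block left 5 calls among the 65 members tested and the joint fit of all 10 libraries 8, with 7897 and 7607 of all 72442 peaks called.

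**Figure D1:**
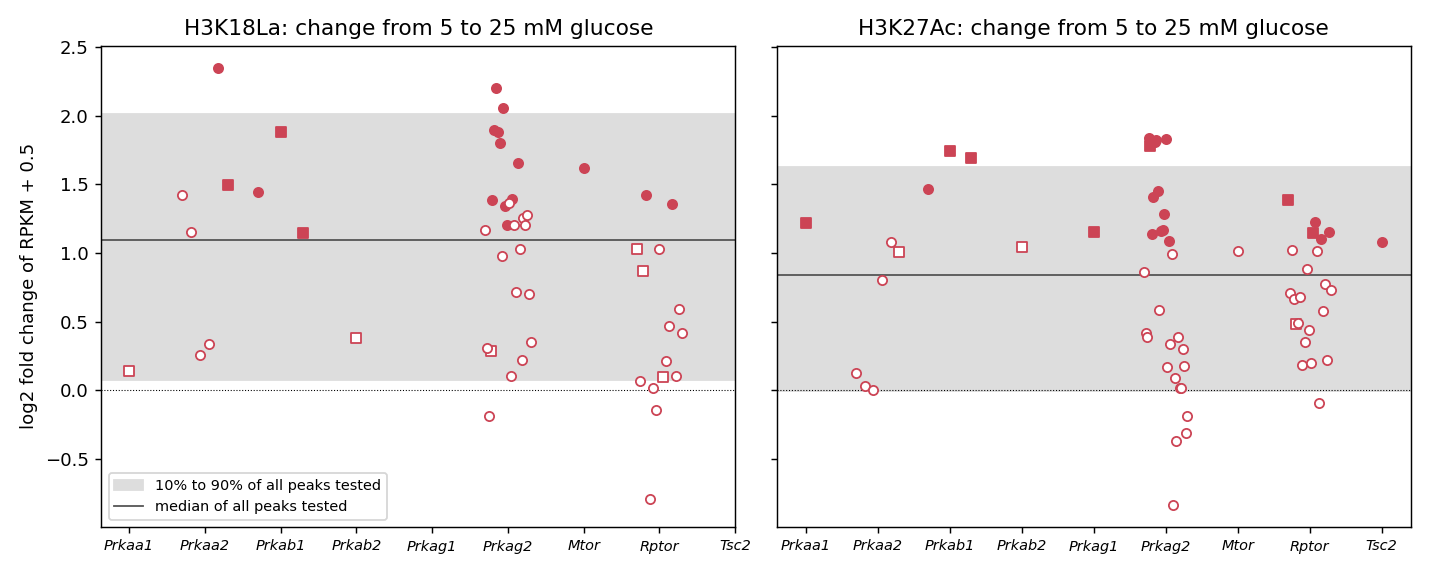
Log2 change of RPKM + 0.5 from 5 to 25 mM glucose (vertical axis) for every member peak that passed the minimum of 1 RPKM, by gene (horizontal axis), for H3K18La (left) and H3K27Ac (right). Squares are promoter peaks, circles other peaks, filled symbols have an adjusted p under 0.05 (limma), the grey band spans 10% to 90% of all peaks tested and the line is their median, 1.10 for H3K18La and 0.84 for H3K27Ac. Prkag1 and Tsc2 have no point for H3K18La, and 26 of 53 and 32 of 65 member peaks lie above the line.

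Of the catalytic subunit genes, Prkaa2 had 6 peaks and Prkaa1 had 1. At the Prkaa2 promoter peak (chr4:105108950-105110912), H3K18La was 1.69, 1.67 and 1.13 RPKM in the 5 mM libraries and 6.74, 3.88 and 4.98 in the 25 mM libraries. The groups did not overlap, and the log2 change was 1.50 ± 0.37 (SE, n = 3 per group, limma adjusted p = 0.00917). H3K27Ac there was 6.36 and 8.12 at 5 mM and 18.5 and 12.1 at 25 mM, also without overlap, with a log2 change of 1.01 ± 0.49 that did not pass the test (limma adjusted p = 0.0920). An intronic Prkaa2 peak 8418 bases from the start had the largest H3K18La change of any member peak that passed the test, 2.35 ± 0.67 on the log2 scale (limma adjusted p = 0.0184), on 1.15, 1.40 and 0 RPKM at 5 mM and 12.3, 1.79 and 6.55 at 25 mM. It rested on 10 or fewer reads in each library, and the second 25 mM library lay close to the 5 mM libraries. Its mean at 5 mM was 0.852 RPKM, so it passed the minimum only through the 25 mM libraries. At the Prkaa1 promoter peak, H3K18La was 0, 0.574 and 2.92 RPKM at 5 mM and 1.01, 1.46 and 0.334 at 25 mM, from at most 6 reads per library, so a change was not detectable at this depth (log2 change 0.14 ± 0.80, 95% interval -1.62 to 1.90). H3K27Ac at Prkaa1 was 1.84 and 3.83 at 5 mM and 10.1 and 4.68 at 25 mM, a log2 change of 1.22 ± 0.44 (limma adjusted p = 0.0236).

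Of the beta subunit genes, Prkab1 had the highest summed level of the members at 25 mM in both marks, although at 5 mM Mtor had the higher mean H3K27Ac (10.6 ± 3.41 RPKM against 9.29 ± 3.55, SD, n = 2), and all 3 of its peaks rose in both marks. Its strongest promoter peak (chr5:116016941-116018685) lay inside the gene, at the start of a transcript annotated as a retained intron. H3K18La there was 2.45, 1.66 and 1.69 RPKM at 5 mM and 12.5, 8.17 and 5.60 at 25 mM, a log2 change of 1.88 ± 0.36 (limma adjusted p = 0.00276). H3K27Ac was 7.82 and 15.6 at 5 mM and 42.7 and 34.0 at 25 mM, a log2 change of 1.74 ± 0.53 (limma adjusted p = 0.00833). Averaged over the libraries of a group, this peak stood at percentile 83.5 of all promoter peaks for H3K18La at 5 mM and at percentile 93.9 at 25 mM, and for H3K27Ac at percentiles 95.8 and 97.1. The peak over the start of the full-length gene (chr5:116022893-116025034), whose upstream bases are shown above, was weaker: H3K18La went from 1.55, 1.53 and 1.38 to 5.94, 3.44 and 2.83 RPKM, and H3K27Ac from 4.53 and 6.99 to 24.9 and 15.0. Its log2 changes were 1.15 ± 0.39 for H3K18La (limma adjusted p = 0.0375) and 1.69 ± 0.49 for H3K27Ac (limma adjusted p = 0.00635). The exonic Prkab1 peak (chr5:116015758-116016102) had the highest H3K27Ac of all members, 15.4 and 22.4 RPKM at 5 mM and 56.0 and 48.8 at 25 mM. It also overlaps the antisense gene Gm14508, and the assay has no strand by which to assign it.

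Prkab2, the other beta subunit gene, had 1 promoter peak, with H3K18La at 0.736, 0.799 and 1.52 RPKM at 5 mM and 1.32, 1.40 and 1.57 at 25 mM. These values overlapped, and the log2 change of 0.38 ± 0.48 did not pass the test (95% interval -0.67 to 1.42, limma adjusted p = 0.533). H3K27Ac went from 3.35 and 4.50 to 9.57 and 7.67 RPKM without overlap, with a log2 change of 1.05 ± 0.46 (limma adjusted p = 0.0598).

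**Figure D2:**
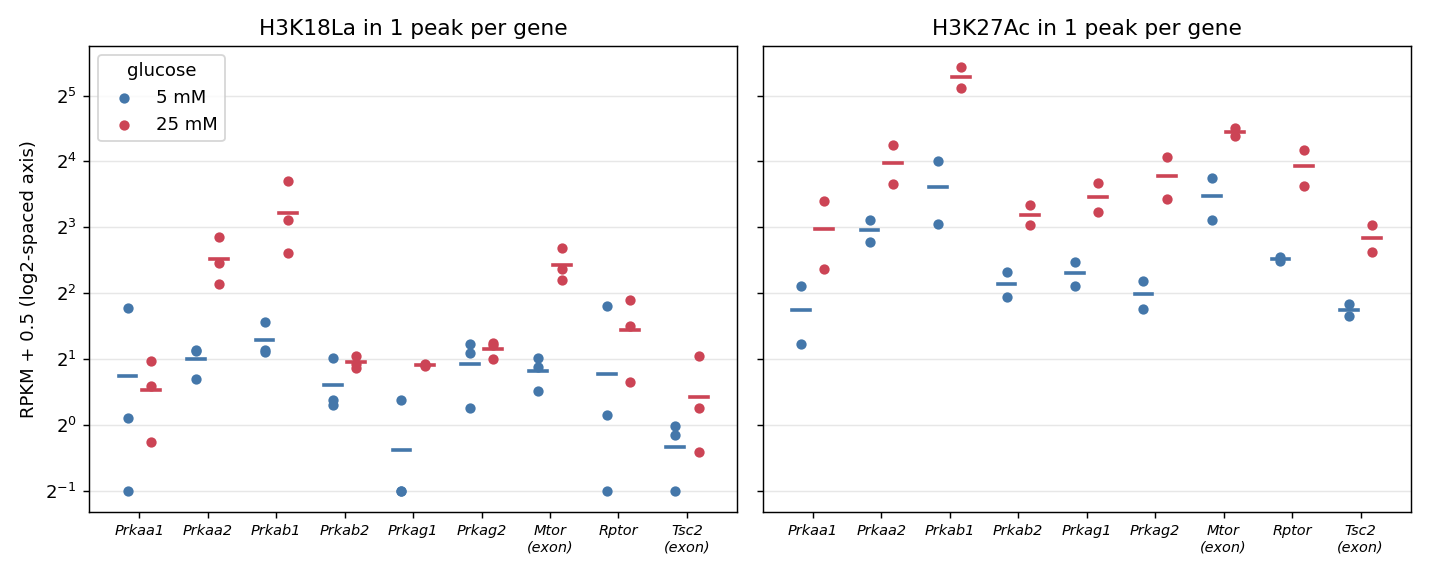
RPKM + 0.5 (vertical axis, spaced by log2) in every library for 1 peak per gene (horizontal axis): the strongest promoter peak, or for Mtor and Tsc2 their exonic peak. Points are libraries (3 per glucose level for H3K18La on the left, 2 for H3K27Ac on the right), bars are group means, and H3K27Ac in the 25 mM libraries lies above the 5 mM libraries for all 9 genes, as it does at 78.5% of all promoter peaks and 48.2% of the peaks outside promoters.

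Of the gamma subunit genes, Prkag1 had 1 promoter peak that was near the floor for H3K18La, with 0, 3 and 0 reads at 5 mM and 2, 4 and 3 at 25 mM, and it did not pass the minimum. Its H3K27Ac was 3.80 and 5.07 RPKM at 5 mM and 12.2 and 8.86 at 25 mM, a log2 change of 1.15 ± 0.47 (limma adjusted p = 0.0427) that became -0.03 with reads in peaks as the denominator. Unlike Prkag1, Prkag2 had most of its signal outside promoters, where the Mtor and Tsc2 peaks and 23 of the 26 Rptor peaks also lay. A run of 9 intronic peaks over 32108 bases (chr5:24960633-24992740), 3013 to 35120 bases downstream of the second RefSeq start, held 61.9, 57.5 and 63.4% of the H3K18La reads in Prkag2 peaks in the 5 mM libraries and 76.2, 75.8 and 70.1% in the 25 mM libraries. For H3K27Ac these shares were 43.3 and 52.3% at 5 mM and 64.6 and 57.0% at 25 mM. The shares do not depend on a library's total, and the glucose groups did not overlap in either mark. The share of all reads that lie in peaks also differed between the groups, and its part in the locus shares was not tested. Such shares were not computed at other loci. This run was picked out after its values were seen, so its shares are a description with no test. The other 23 intronic Prkag2 peaks held 29.9 to 34.5% of the H3K18La reads at 5 mM and 18.7 to 25.1% at 25 mM.

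Within the run, the strongest peak (its central bases are printed above) had H3K18La of 5.27, 5.36 and 13.6 RPKM at 5 mM and 33.9, 28.7 and 23.1 at 25 mM, with a log2 change of 1.88 ± 0.32 (limma adjusted p = 0.00153). At 25 mM it stood at percentile 99.8 of all peaks for H3K18La and at percentile 92.2 for H3K27Ac, which was 3.00 and 6.86 RPKM at 5 mM and 17.2 and 17.7 at 25 mM. The neighbouring peak chr5:24967552-24969991, the widest of the run, had the second largest H3K18La change of the member peaks outside promoters, from 2.72, 4.51 and 2.41 to 18.8, 15.9 and 14.0 RPKM (log2 change 2.20 ± 0.29, limma adjusted p = 0.000507). Its H3K27Ac went from 3.32 and 4.69 to 21.0 and 10.8 RPKM (log2 change 1.81 ± 0.48, limma adjusted p = 0.00279). Of the 9 peaks, 8 rose in H3K18La and 8 in H3K27Ac, in a run chosen for its values. Of all peaks tested, promoter peaks included, 37.3% and 33.9% rose. Of the other intronic Prkag2 peaks, 2 of the 15 tested rose in H3K18La and 2 of the 17 tested in H3K27Ac. Another peak in the same stretch is annotated to the long noncoding RNA gene 1500035N22Rik, which overlaps Prkag2, and is not counted among the 75. It is that gene's promoter peak, and 2 of the 9 peaks of the run (chr5:24989551-24990781 and chr5:24992002-24992740) overlap the same gene, so their signal cannot be assigned to Prkag2 alone.

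The Prkag2 promoter peak at the third start (chr5:24907686-24909043) was higher at 25 mM in H3K27Ac, while its H3K18La change did not pass the test. H3K18La was 0.698, 1.85 and 1.63 RPKM at 5 mM and 1.87, 1.81 and 1.49 at 25 mM, with overlap and a log2 change of 0.29 ± 0.45 (95% interval -0.69 to 1.26, limma adjusted p = 0.613). H3K27Ac was 2.89 and 4.03 at 5 mM and 16.3 and 10.3 at 25 mM, a log2 change of 1.78 ± 0.47 (limma adjusted p = 0.00275). In percentiles of all promoter peaks, which do not depend on a library's total, it went from 67.0 to 45.5 for H3K18La and from 54.9 to 67.3 for H3K27Ac. The H3K18La percentiles rest on 2, 13 and 3 reads at 5 mM and 5, 10 and 6 at 25 mM, so they are imprecise. The difference between the 2 log2 changes was 1.49 ± 0.60 (95% interval 0.20 to 2.78), but it did not pass the test over all peaks (limma adjusted p = 0.903). Its unadjusted limma p of 0.0261 became 0.0561 without H3K18La 5 mM replicate 2, 0.0864 without H3K27Ac 5 mM replicate 1 and 0.136 without H3K27Ac 25 mM replicate 1. The 2 largest H3K27Ac changes outside promoters were also in Prkag2, on few reads. Both peaks had a mean under 1 RPKM at 5 mM (0.639 and 0.299) and passed the minimum only through the 25 mM libraries. An exonic peak (chr5:24902778-24903210), where the antisense gene Prkag2os1 overlaps, went from 0.534 and 0.744 to 2.89 and 4.35 RPKM (log2 change 1.84 ± 0.46, limma adjusted p = 0.00166). An intronic peak (chr5:25000493-25001031) went from 0 and 0.597 to 1.81 and 2.50 RPKM (log2 change 1.83 ± 0.61, limma adjusted p = 0.0154).

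**Figure D3:**
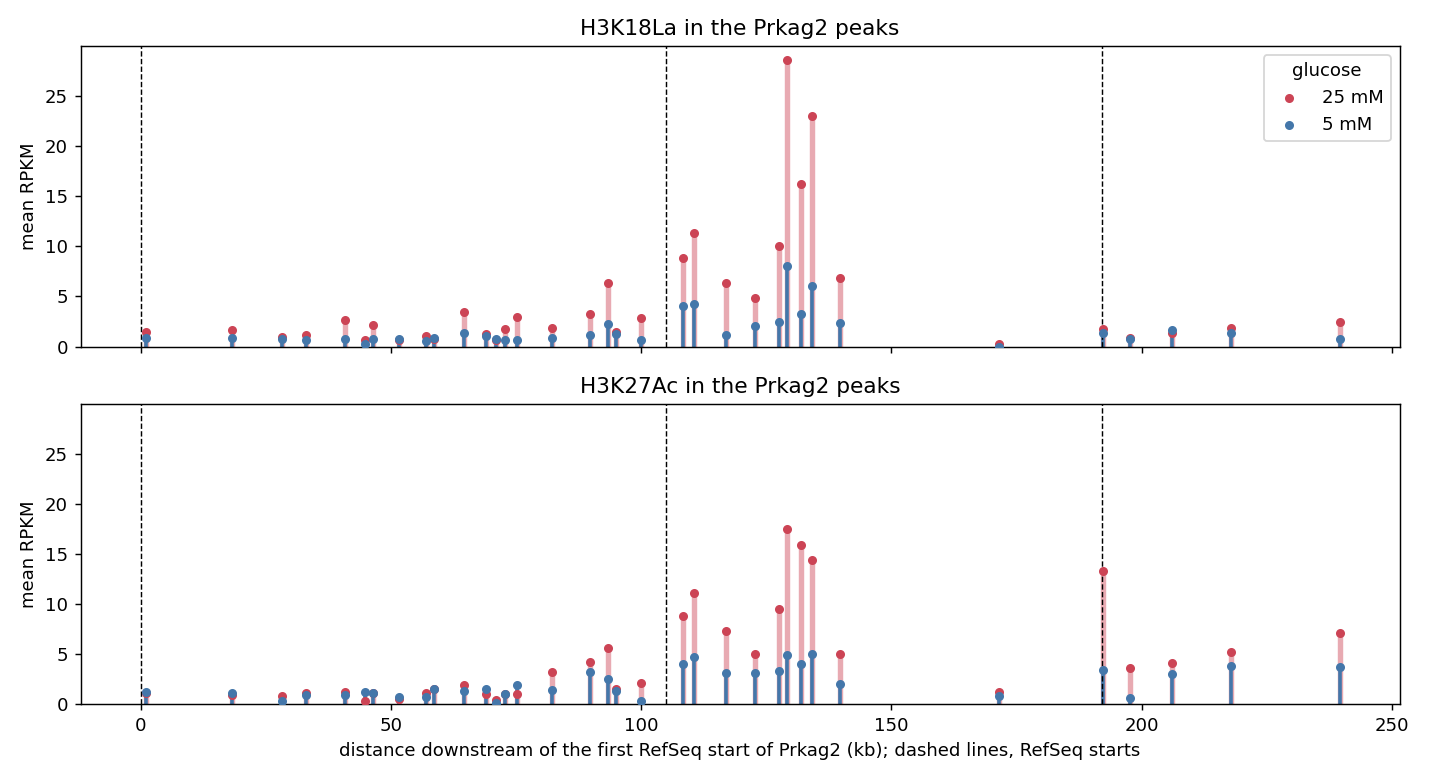
Mean RPKM (vertical axis) of H3K18La (top, n = 3 libraries per glucose level) and H3K27Ac (bottom, n = 2) at each of the 35 Prkag2 peaks, by the distance of the peak's centre downstream of the first RefSeq start (horizontal axis, kb). Dashed lines mark the 3 RefSeq starts, at 0, 105 and 192 kb, stems run from 0 to the mean, and the 3 tallest stems of both marks lie between the second and the third start, at 129 to 134 kb, while at the third start only H3K27Ac has a tall stem at 25 mM.

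In the mTOR branch, the exonic Mtor peak had H3K18La of 1.34, 1.52 and 0.928 RPKM at 5 mM and 5.93, 4.11 and 4.68 at 25 mM, without overlap (log2 change 1.62 ± 0.37, limma adjusted p = 0.00618). Its H3K27Ac was among the highest of the members, 8.16 and 13.0 RPKM at 5 mM and 20.5 and 22.3 at 25 mM, and the log2 change of 1.02 ± 0.51 did not pass the test (limma adjusted p = 0.103). Rptor, which encodes RAPTOR, had a peak over its start with H3K18La of 3.00, 0.610 and 0 RPKM at 5 mM and 3.21, 2.33 and 1.07 at 25 mM. Those values overlapped and came from at most 6 reads each, and the log2 change was 1.03 ± 0.69 (limma adjusted p = 0.244). H3K27Ac at the same peak went from 5.11 and 5.34 to 17.6 and 11.9 RPKM (log2 change 1.39 ± 0.48, limma adjusted p = 0.0194). Of the 23 Rptor peaks outside promoters, 12 passed the minimum for H3K18La, with 2 called, and 19 for H3K27Ac, with 3 called, beside 37.3% and 33.9% of all peaks tested. Those shares include promoter peaks, of which 33.3% and 57.0% were called, so the sets are not alike. The lowest H3K18La change of all member peaks tested was at an Rptor peak outside promoters, -0.79 ± 0.72 on the log2 scale (limma adjusted p = 0.393). Tsc2, the AMPK target that restrains mTOR, had no more than 3 H3K18La reads in any library at its exonic peak, and its H3K27Ac went from 3.07 and 2.63 to 7.68 and 5.65 RPKM (log2 change 1.08 ± 0.44, limma adjusted p = 0.0430).

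Summing the reads of all peaks of a gene gave 1 value per gene and library, an RPKM over the summed length, and here a peak belongs to a gene by its symbol. At 25 mM the H3K18La loci ranked Prkab1 (6.73 ± 2.69 RPKM, SD, n = 3), Prkag2 (4.97 ± 0.396), Mtor (4.91 ± 0.934), Prkaa2 (3.25 ± 0.982), Rptor (1.92 ± 0.285), Prkab2 (1.43 ± 0.129), Prkag1 (1.38 ± 0.025), Prkaa1 (0.936 ± 0.568) and Tsc2 (0.834 ± 0.666). From Prkab1 to Mtor and from Prkab2 to Tsc2, neighbours in this order differed by less than the larger SD of the pair. The H3K27Ac loci at 25 mM ranked Prkab1 (30.2 ± 6.48 RPKM, SD, n = 2), Mtor (21.4 ± 1.32), Prkag1 (10.5 ± 2.36), Prkab2 (8.62 ± 1.34), Prkaa1 (7.37 ± 3.81), Prkaa2 (6.87 ± 1.28), Tsc2 (6.66 ± 1.44), Prkag2 (5.39 ± 0.971) and Rptor (3.85 ± 0.127), and from Prkag1 to Prkag2 neighbours again differed by less than the larger SD of the pair. Prkag2 was thus second for H3K18La and second to last for H3K27Ac.

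Of the 7 loci that passed the minimum for H3K18La, 5 rose and none fell, against 57.0% of all loci tested. They were Mtor (log2 change 1.62 ± 0.21), Prkab1 (1.54 ± 0.27), Prkag2 (1.36 ± 0.15), Prkaa2 (1.34 ± 0.28) and Rptor (0.68 ± 0.21, limma adjusted p = 0.0272), beside a median of 0.97 over all loci. Prkab2 (0.38 ± 0.27) and Prkaa1 (0.14 ± 0.76) did not pass the test. For H3K27Ac, 7 of 9 loci rose and none fell, against 62.2% of all loci, from Prkab1 (1.68 ± 0.50) to Rptor (0.74 ± 0.34, limma adjusted p = 0.0491), beside a median of 1.01. Mtor (1.02 ± 0.50) and Prkaa2 (0.80 ± 0.42) did not pass. With median centring or reads in peaks as the denominator, no member locus was called in either mark. Of all loci, 1385 of 14877 for H3K18La and 269 of 17544 for H3K27Ac were called with centring, and 0 with reads in peaks. With 1 library left out, H3K18La lost a member call only at Rptor, for 4 of the 6 libraries. For H3K27Ac this leaves a lone library in a group, and its calls, of members and of all loci, were not stable. The median log2 change of all H3K27Ac loci was 0.80 and 1.22 without 5 mM replicate 1 or 2. It was 0.89 and 1.13 without 25 mM replicate 1 or 2. With no minimum RPKM and with the replicate block, 0 member loci were called for H3K27Ac, against 0 and 1069 of all loci, and 7 and 2 members had an unadjusted p under 0.05. The Rptor locus rose in both marks by less than the median locus, and its H3K18La and H3K27Ac changes turned negative when libraries were centred on their medians or scaled to their reads in peaks. On the latter scale the H3K27Ac changes of Prkaa2, Mtor, Prkab2, Prkag1, Prkag2 and Tsc2 were also below 0, while those of Prkaa1 and Prkab1 stayed above it.

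The share of a library's peak reads that fell in member peaks does not depend on the RPKM denominator. For H3K18La it was 8.36 ± 0.263 per 10000 reads at 5 mM and 8.52 ± 0.587 at 25 mM (SD, n = 3 per group, exact two-sided permutation p = 0.700, the smallest possible being 0.100). For H3K27Ac it was 9.14 ± 0.186 at 5 mM and 8.68 ± 0.169 at 25 mM (SD, n = 2 per group, exact two-sided permutation p = 0.33, which is the smallest possible). In promoter peaks alone the H3K27Ac share went from 2.99 ± 0.0893 to 3.44 ± 0.275 and the H3K18La share from 1.72 ± 0.134 to 1.53 ± 0.383. The H3K27Ac groups did not overlap, in opposite directions for all member peaks and for their promoters, and the H3K18La groups overlapped. With reads in peaks as the denominator, the median H3K27Ac log2 change of all promoter peaks tested was 0.071 and that of all peaks -0.22, while with median centring both were above 0 (0.54 and 0.15). On both scales the median was higher for promoter peaks.

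The balance of the marks, the mean log2(RPKM + 0.5) of H3K18La less that of H3K27Ac, was lower at the members' promoters than at their introns, as over all peaks of these classes. The share of reads in peaks was lower for H3K18La than for H3K27Ac at both glucose levels, so the sign of the balance depends on the denominator. A value of 0 does not stand for equal amounts of the marks, and counts above and below it hold on the RPKM scale only. The balance was below 0 at all 10 member promoter peaks at both glucose levels, with a median of -1.67 at 5 mM and -2.20 at 25 mM, beside -1.39 and -1.55 over all promoter peaks, of which 10.0% and 14.3% were above 0. At 5 mM it was above 0 at 9 of the 57 intronic member peaks, or 15.8% against 23.4% of all intronic peaks, and at 25 mM at 25 of the 57, or 43.9% against 34.7%. In the Prkag2 run it was above 0 at 4 of 9 peaks at 5 mM and at 7 of 9 at 25 mM, with the strongest peak at 0.62 and 0.68. At the other 23 intronic Prkag2 peaks it was above 0 at 3 and then at 15, and their median went from -0.38 to 0.11, beside -0.17 and 0.03 in the run. Across the glucose levels, no peak passed the test of a difference between the marks' changes (0.0% of 72467 peaks, limma), with 3650 at an unadjusted p under 0.05, and voom on recovered reads also gave 0. Of the 64 member peaks tested, 2 had an unadjusted p under 0.05: the Prkag2 promoter peak above and an intronic Prkag2 peak (chr5:25025139-25025548). At the latter, H3K18La was 1.16, 0.941 and 0 RPKM at 5 mM and 3.72, 3.60 and 1.64 at 25 mM while H3K27Ac was 2.26 and 1.57 and then 0.339 and 1.64, from at most 6 reads a library (difference of log2 changes -2.49 ± 0.87).

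**Figure D4:**
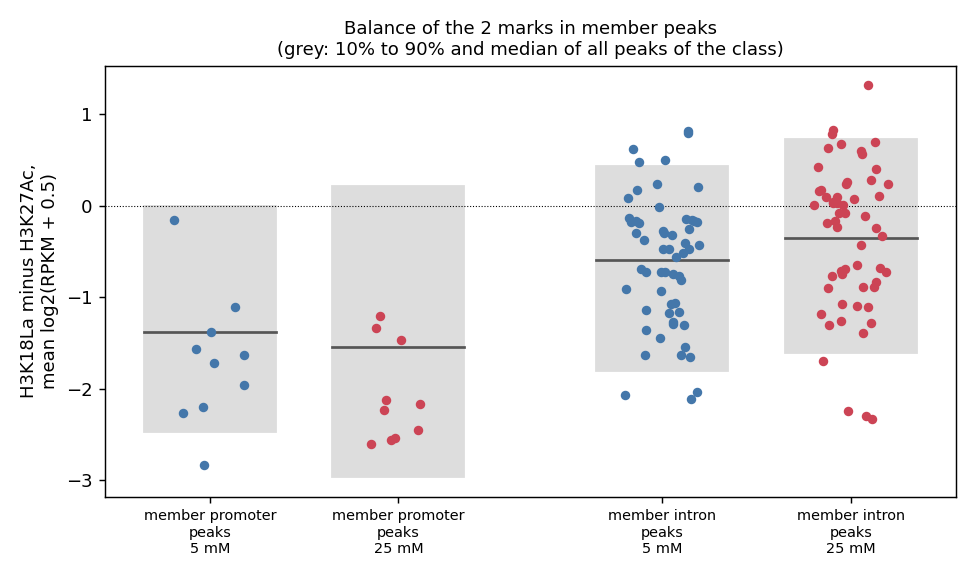
Balance of the marks (vertical axis, mean log2(RPKM + 0.5) of H3K18La less that of H3K27Ac) at the 10 promoter and 57 intronic member peaks (points), at 5 mM and 25 mM glucose. Grey boxes span 10% to 90% of all promoter or intronic peaks with their median as a line, points are jittered sideways, and every promoter point lies below 0.

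Other genes of the pathway were taken from a list of 58, of which 51 had a promoter peak, and the strongest promoter peak of each was used. For H3K18La, 39 passed the minimum, of which 16 rose and none fell, which is 41.0% against 33.3% of all promoter peaks tested, and of the 9 member promoters that passed, 3 rose. For H3K27Ac all 51 passed and 35 rose, or 68.6% against 57.0%, with 7 of 10 member promoters. The list's shares are of the strongest promoter peak of each gene and the background shares of every promoter peak tested, weak ones included, so they are not of like sets. The largest H3K18La rises were at Flcn, whose product folliculin acts in amino acid signalling to mTOR (1.63, 1.49 and 1.26 RPKM to 17.0, 8.44 and 5.78, log2 change 2.35 ± 0.40), at Rhebl1, a relative of the mTOR activator Rheb (log2 change 2.12 ± 0.41), and at Camkk1, which encodes a calcium-dependent kinase of the family that phosphorylates AMPK (log2 change 1.94 ± 0.38). The largest H3K27Ac rises were again at Rhebl1 (3.55 and 6.77 to 34.8 and 18.1 RPKM, log2 change 2.24 ± 0.50), at Tsc1, the partner of Tsc2 (2.19 and 4.33 to 20.7 and 11.5, log2 change 2.14 ± 0.47), and at Stradb, a pseudokinase partner of Stk11 (5.38 and 7.82 to 34.1 and 23.4, log2 change 2.04 ± 0.51).

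Over the 10 libraries, the mean of the standardised log2 values of the 9 member loci closely followed the levels of Pdxk, which encodes pyridoxal kinase (Pearson r = 0.998), and of Frmd8os (r = 0.998), which were among the 3 most similar of 17350 loci compared. The points share 2 marks, 2 glucose levels and the library totals, 43.3% of all loci had r above 0.9, and the correlation is a description. Among the members themselves the 36 pairwise correlations ran from 0.439 to 0.989 with a median of 0.891.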

How the data were processed

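CUT&Tag of H3K18La (3 libraries per glucose level) and H3K27Ac (2 per level) was analysed, in groups from the sample titles. The titles and the study's methods give H3K27Ac and a Tn5 fusion, while the labels' protocol text names an H3K9me3 antibody and pA-MNase, and the titles were followed. According to the methods, the authors aligned reads to GRCm38 with nf-core/cutandrun, called peaks with MACS, annotated them with ChIPseeker 1.34.1 and counted reads with csaw. The authors deposited RPKM values for 1 set of peaks, and whether window-based normalization factors entered them is not stated. A second deposited table, of the authors' own comparisons made with edgeR 3.40.2, was not used. All RPKM values were whole multiples of 1 read within 0.05, so reads and denominators were recovered. Fragments carried no molecular identifiers.

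The study's count model was replaced by limma 3.58.1 in R 4.3.3 (lmFit, eBayes with trend) on log2(RPKM + 0.5), for peaks or loci with a mean RPKM of at least 1, with Benjamini-Hochberg adjustment over all features tested and a threshold of 0.05, per mark, and over all 10 libraries for the difference between marks. Shares were compared by exact permutation (SciPy 1.17.1). The procedure was tested on simulated data. Alternatives were other pseudocounts (0.1, 1), no minimum, other scalings, voom, robust moderation, a joint fit, a replicate block and leaving out each library. All replicate pairs differed by more than counting noise and were kept apart. RefSeq sequence was read with pysam 0.24.0.

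The members, the pathway and marker lists and the rules were chosen with earlier results of these data known. Named were all 10 members (strongest promoter peak, summed locus, other peaks by count), the 2 largest rises and falls per mark past the threshold outside promoters, the 3 largest per mark among pathway promoters, and the 3 most similar loci, of which 1 is not reported here. Other values named in the text (the Prkag2 intronic run, the exonic Prkab1 peak, the lowest Rptor change and the peaks with an unadjusted p under 0.05 for the difference) were chosen after the values were seen. The 95% intervals are limma's and reflect the spread between libraries.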

Additional observations from a re-analysis of the deposited data

How the results depend on the processing

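For H3K18La peaks (18 as reported) the count was 1 with median centring, 0 when scaled to reads in peaks and 12 to 16 with 1 library left out. For H3K27Ac peaks (23) it was 0 with no minimum RPKM, 0 with centring, 0 scaled to reads in peaks, 8 with all 10 libraries in one fit, and 0 to 34 with 1 library left out. For H3K18La loci (5) it was 0 with centring, 0 scaled to reads in peaks and 4 to 5 with 1 library left out, and for H3K27Ac loci (7) it was 0 with no minimum, 0 with centring, 0 scaled to reads in peaks and 0 to 9 with 1 left out. Leaving out 1 H3K27Ac library leaves a lone library in its group, and the calls over all peaks and loci moved as well, as given below. Whether equal replicate numbers mark paired libraries was not settled. For H3K18La, deviations of equal numbers correlated at 0.00757 to 0.0307 and those of unequal numbers at -0.0363 to 0.0198, on few reads per peak. With 2 H3K27Ac libraries a group, equal and unequal numbers can only differ in sign, here 0.0211 and -0.0211, which cannot decide it. A fit with the replicate block called 18 member peaks and 5 loci for H3K18La, and 5 peaks and 0 loci for H3K27Ac. The difference between marks gave 0 member calls under every alternative run.

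Over all peaks, H3K18La calls in both directions went from 24539 to 1040 with centring, 0 scaled to reads in peaks and 15440 to 24137 with 1 library left out, lowest without 25 mM replicate 2. Promoter peaks called higher went from 4063 to 2211 without 25 mM replicate 1 and 2407 without 25 mM replicate 2. H3K27Ac calls went from 24698 to 0 with no minimum, 1144 with centring, 0 scaled to reads in peaks, 7607 in the joint fit, 7897 with the replicate block and 10 to 38689 with 1 library left out. Over all loci, H3K18La calls went from 8499 to 1385 and 0 under these scalings. H3K27Ac calls went from 10967 to 0 with no minimum, 269 with centring, 0 scaled to reads in peaks, 1069 with the block and 122 to 12890 with 1 library left out.

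Log2 changes that turned negative were, for H3K18La promoter peaks with centring and then scaled to reads in peaks, -0.77 and -0.62 at Prkaa1, -0.53 and -0.63 at Prkab2, and -0.62 and -0.79 at Prkag2. For H3K18La loci these were -0.70 and -0.62 at Prkaa1, -0.47 and -0.63 at Prkab2, and -0.17 and -0.39 at Rptor. For H3K27Ac loci they were -0.0069 and -0.22 at Mtor, -0.23 and -0.36 at Prkaa2, and -0.28 and -0.34 at Rptor. Scaled to reads in peaks alone, H3K27Ac turned to -0.21, -0.13 and -0.034 at the Prkaa2, Prkab2 and Prkag1 promoters and to -0.13, -0.034, -0.052 and -0.067 at the Prkab2, Prkag1, Prkag2 and Tsc2 loci. With 1 library left out, H3K18La at Prkaa1 ranged from -0.50 to 0.88, peak and locus alike, and at the Prkag2 promoter from -0.010 to 0.47. The difference in share was -0.189 (H3K18La) and 0.45 (H3K27Ac) per 10000 in promoter peaks only, and ranged from -0.148 to 0.438 for H3K18La with 1 library left out. The cause of these changes was not tested. Few reads per peak also limit H3K18La, since a member promoter such as Prkag1 held at most 4 reads in a library.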
